A study of Mus musculus with 13 samples.

Results

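Distal open chromatin that was called in every culture was examined in mouse oligodendrocyte progenitor cells (OPCs) profiled by ATAC-seq. The 13 deposited peak lists were pooled, peaks sharing at least 1 base were fused into one merged peak, and such a peak was kept when each of the 13 libraries had a peak in it and when it lay at least 5 kb from every transcription start site (TSS) of the GENCODE M21 annotation. Of 99746 merged peaks, 13075 were found in every library, and 3329 of these were distal and are called members below. The members were chosen by detection and distance alone, so their presence in all libraries is not a result.

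The cells were OPCs immunopanned with an antibody to PDGFRα from pups at postnatal days P5 to P7, with litters pooled, and kept in a proliferation medium with forskolin, CNTF, NT-3 and PDGF. Cultures came from the brainstem or from the dorsal telencephalon, which combined cortex, corpus callosum and hippocampus and is labelled cortex in the tissue field. K27M cultures carried a conditional H3.3 K27M knock-in at H3-3a (H3f3a) behind a loxP-flanked stop, removed by Cre from a human GFAP promoter transgene that is active in neural stem and progenitor cells, and Control cultures came from littermates. Of the 6 brainstem libraries 3 were Control and 3 K27M, and of the 7 telencephalon libraries 3 were Control and 4 K27M, numbered by culture as 41, 51, 59 or 61. Nothing in the lists tells fewer cells of a kind from weaker opening per cell.

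Regulatory DNA far from promoters includes enhancers, where transcription factors displace nucleosomes and act on genes that can lie far away along the chromosome. Distal sites usually vary more between cell types than promoters do. In OPCs, SOX-family factors such as SOX10 and the basic helix-loop-helix factor OLIG2 are known to bind such sites, at SOX cores and at E-boxes respectively. CTCF binds its own sites at loop anchors, and RFX factors bind X-box elements.

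Representative 300 bp windows, centred on the stretch covered by most libraries, are given 5′ to 3′ on the plus strand of GRCm38 (mm10), from the RefSeq copy of that assembly. They were taken from the members nearest to the TSS of Olig2 and of Sox10, the lineage-factor member with most kinds of motif (nearest to Sox2), the strongest member with the RFX consensus (near Myo3a), a member that differed by region (near Cacna1e) and the member with the highest fold on an assembled chromosome (near Auts2). The Sox2 member lay 501468 bp from the TSS of Sox2 and was the farthest of the members nearest to that gene. Capitals mark matches to the searched motifs on either strand.
Olig2 member, chr16:91246357-91246656: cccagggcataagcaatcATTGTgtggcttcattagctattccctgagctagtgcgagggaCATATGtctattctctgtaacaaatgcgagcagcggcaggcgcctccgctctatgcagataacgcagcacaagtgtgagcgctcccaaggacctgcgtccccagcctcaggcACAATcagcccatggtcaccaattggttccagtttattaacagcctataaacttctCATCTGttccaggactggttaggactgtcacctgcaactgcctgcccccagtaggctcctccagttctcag
Sox10 member, chr15:79193166-79193465: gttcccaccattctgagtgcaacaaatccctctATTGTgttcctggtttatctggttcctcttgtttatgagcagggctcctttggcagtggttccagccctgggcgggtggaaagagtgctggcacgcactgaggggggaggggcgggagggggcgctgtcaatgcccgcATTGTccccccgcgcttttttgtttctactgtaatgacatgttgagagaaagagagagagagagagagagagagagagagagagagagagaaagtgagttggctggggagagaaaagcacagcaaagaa
Sox2 member, chr3:35152352-35152651: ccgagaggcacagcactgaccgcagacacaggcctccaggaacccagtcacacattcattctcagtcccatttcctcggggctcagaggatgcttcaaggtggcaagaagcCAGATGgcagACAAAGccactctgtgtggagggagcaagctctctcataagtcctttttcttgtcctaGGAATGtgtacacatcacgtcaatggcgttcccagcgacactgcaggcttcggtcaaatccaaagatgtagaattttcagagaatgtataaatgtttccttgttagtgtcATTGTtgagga
Myo3a member, chr2:21918369-21918668: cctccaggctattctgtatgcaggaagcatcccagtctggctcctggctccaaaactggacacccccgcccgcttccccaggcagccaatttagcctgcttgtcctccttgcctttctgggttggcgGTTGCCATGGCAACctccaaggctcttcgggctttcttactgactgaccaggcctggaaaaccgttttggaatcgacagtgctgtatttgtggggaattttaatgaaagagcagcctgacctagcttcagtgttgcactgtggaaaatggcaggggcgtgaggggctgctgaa
Cacna1e member, chr1:154532700-154532999: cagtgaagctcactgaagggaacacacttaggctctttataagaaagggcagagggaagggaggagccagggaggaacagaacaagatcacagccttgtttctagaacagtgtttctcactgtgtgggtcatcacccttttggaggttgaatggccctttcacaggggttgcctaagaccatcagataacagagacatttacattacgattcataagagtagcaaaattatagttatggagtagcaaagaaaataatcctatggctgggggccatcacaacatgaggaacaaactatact
Auts2 member, chr5:132731786-132732085: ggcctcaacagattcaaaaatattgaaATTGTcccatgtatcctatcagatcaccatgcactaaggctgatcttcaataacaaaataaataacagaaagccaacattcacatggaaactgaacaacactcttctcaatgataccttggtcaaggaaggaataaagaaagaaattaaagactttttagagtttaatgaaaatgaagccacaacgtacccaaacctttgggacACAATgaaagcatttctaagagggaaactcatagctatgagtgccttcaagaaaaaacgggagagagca
The Sox2 window held 1 ACAAAG, 1 ACAAT, 1 CAGATG and 1 GGAATG match, and the Olig2 window held 2 ACAAT matches and 1 match each to CAGATG and CATATG. The Sox10 window held 2 ACAAT matches and the Myo3a window 1 RFX match. The Cacna1e window held no match to any searched motif.

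The peak lists were unequal in length, from 16879 peaks in Control telencephalon culture 59 to 52466 in Control brainstem culture 61. Read counts are not among the values used here, and the depth behind a fold is unknown. As a check of the labelled cell type, the promoters of Pdgfra, Olig2 and Sox10 held a merged peak found in every library, and that of Cspg4 (NG2) did not. Such promoter peaks were found at 17 of 21 lineage transcription factors and 9 of 14 OPC surface and matrix genes. They were found at 0 of 10 microglial, 0 of 8 endothelial, 3 of 10 astrocyte, 6 of 15 neuronal and 5 of 15 myelin genes. Of all coding genes 42.2% held one.

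The share of distal peaks was lower the more libraries had the merged peak. Of merged peaks found in 1 library 72.4% were distal, of those in 12 libraries 44.4%, and of those in all 13 libraries 25.5% (95% Wilson interval 24.7 to 26.2, which covers counting of peaks only). Members made up a share of each library's distal peaks that ranged from 11.8% in K27M telencephalon culture 51 to 58.1% in Control telencephalon culture 59, which had the shortest list. That library also limited the number of members. Without it 5165 merged peaks were distal and shared, 29.8% of those shared by the other 12 libraries. At the equal length of 16879 most significant peaks per library, 1973 were.

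**Figure D1:**
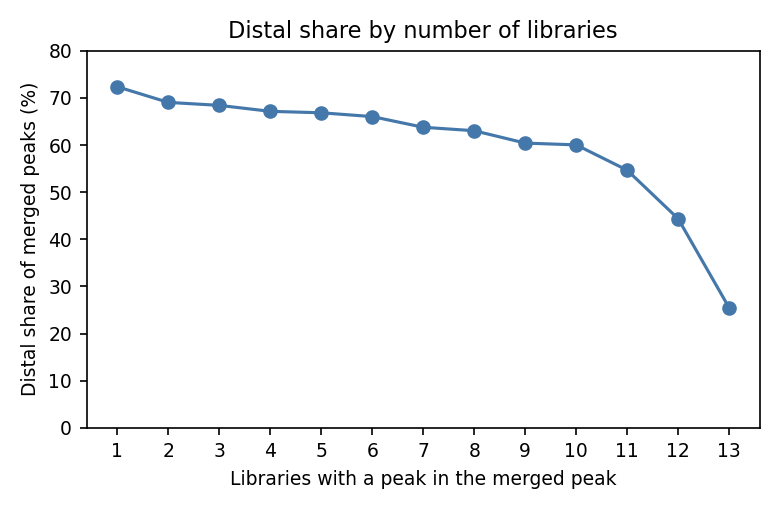
Distal share of merged peaks (y axis, percent) against the number of libraries that had a peak in the merged peak (x axis). The share was 72.4% for 1 library and 25.5% for 13 libraries.

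Members were narrower than shared peaks near a TSS. The merged peaks of the members had a median width of 1526 bp (range 449 to 5147 bp). A stretch covered by peaks of all 13 libraries was present in 3264 of the 3329 members (98.0%), and its median width was 434 bp. The 9746 shared merged peaks within 5 kb of a TSS, used as the comparison, had a median width of 1717 bp. Their common stretch, present in 98.7%, had a median width of 578 bp. Overlap was needed to join peaks, so a common stretch was largely built in. In each of the 13 libraries the median peak was narrower in the members than near a TSS. The means of these medians were 960 and 1130 bp.

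The strength of the members was close to that of shared peaks near a TSS. Fold here is the deposited enrichment over the local background of the same library, averaged over the peak. The mean fold of a member over 13 libraries had a median of 3.61 (range 1.51 to 10.9) against 3.51 near a TSS. The library medians of the members ranged from 2.96 in Control telencephalon culture 59 to 4.15 in Control brainstem culture 61. In 13 of 13 libraries the median of the members was above that of the TSS-near peaks, by 0.04 ± 0.03 on the log2 scale (SD, n = 13), a ratio of 1.03 (two-sided exact sign-flip permutation test, p = 0.000244, the smallest 13 libraries can give). The test took the libraries as independent, although culture numbers recur across groups. Without Control telencephalon culture 59, which also changes the set of shared peaks, the difference was 0.02, positive in 8 of 12 libraries (exact sign-flip p = 0.0146). The difference did not separate brainstem from telencephalon (-0.02, two-sided exact permutation within genotype, p = 0.219) or K27M from Control (-0.01, exact permutation within region, p = 0.651).

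**Figure D2:**
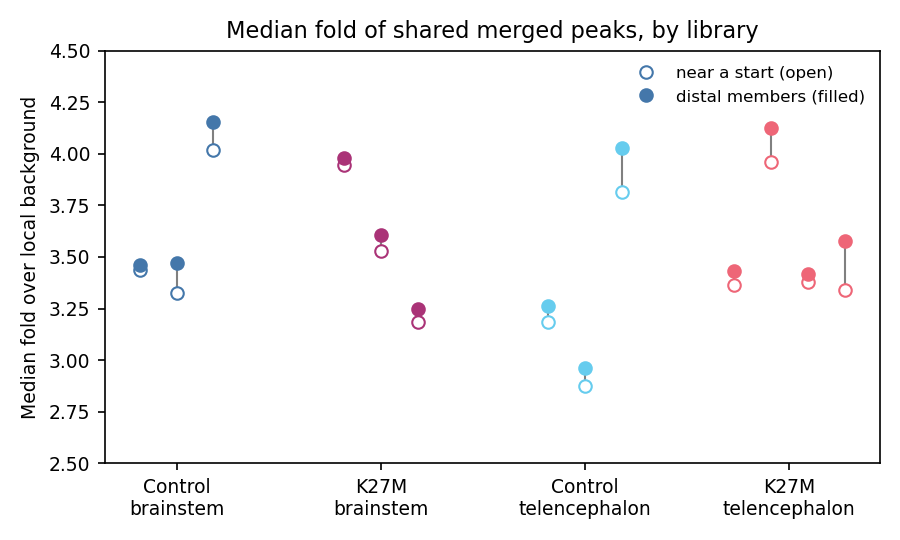
Median fold over local background (y axis, starting at 2.5) in each library, with filled points for the distal members and open points for shared merged peaks near a TSS, grouped by genotype and region. In each of the 13 libraries the filled point lies above the open point, and both vary more between libraries than between the 2 kinds of peak.

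Ranked within each library's own list, members had a median fold percentile of 76.6, against 73.4 for shared peaks near a TSS. Both sets had to be called in every list, the shortest included, so a high rank in the longer lists was in part built in. Fewer members lay below the median of the lists (10.4% against 18.3%), and the shares at or above the 90th percentile were 16.8% and 16.2%. The SD over libraries of log2 fold, centred on each library's median, had a median of 0.14 in members and 0.13 near a TSS.

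The highest folds were found at repeats and on contigs. Of the 10 members with the highest mean percentile, 3 lay on 1 unplaced contig. The strongest of them reached 10.9 ± 1.67 (SD, n = 13), with 8.62, 11.2 and 13.5 as the lowest, median and highest library. In all, 15 members lay on 4 contigs, 12 of them on that contig, where mean folds ran from 1.51 to 10.9. The strongest member on an assembled chromosome (chr5:132731686-132732451, intergenic, 188342 bp from the TSS of Auts2) had folds of 6.45 to 10.9, with a median of 8.05. All bases of its window (100%) are soft-masked as repeat, as are those of the next (chr1:118123466-118124162, 52380 bp from Gm29106, mean fold 6.76 ± 0.83). Windows at least 50% masked were uncommon, at 40 of 3314 members on chromosomes (1.21%). Their median fold percentile was 69.6, against 77.5 for the 1181 windows with no masked base. The part of repeat mapping in the highest folds was not tested.

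The other members of the highest 10 carried less masked sequence. The member 5497 bp from Zfp869 on chromosome 8 had a mean fold of 5.93 ± 0.78 and 0% masked bases, and its window held 22 CG dinucleotides. The members near Itga1 (an integrin subunit), Igsf11 (an adhesion protein), Mmp16 (a matrix metalloprotease) and Trib2 (a pseudokinase) had mean folds of 6.13, 5.83, 5.57 and 5.79. The lowest library was Control telencephalon culture 59 for Zfp869, Itga1, Mmp16 and Trib2, and K27M brainstem culture 61 for Igsf11.

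Members sat in introns about as often as other distal peaks. By the centre of the stretch covered by most libraries, 1752 members (52.6%) were intronic, 1493 (44.8%) intergenic and 84 (2.52%) exonic, and 64 of the last lay in an exon of a coding gene. Over all 61837 distal merged peaks the shares were 52.7%, 43.6% and 3.72%. Of the 1572 members in an intron of a coding gene, the host was also the gene with the nearest coding TSS for 1411 (89.8%). The median distance to the nearest coding TSS was 36080 bp. The nearest was 5 to 10 kb away for 13.8% of members, 10 to 50 kb for 45.8%, 50 to 100 kb for 16.8%, 100 to 500 kb for 21.3% and over 500 kb for 2.34%. Downstream of that TSS lay 53.1% and upstream 46.9%. Of shared merged peaks, the members were 14.8% on chromosome X (45 of 305), 32.4% on chromosome 18 and 32.8% on chromosome 12.

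At the border of the rule, the folds of the nearest peaks on either side of 5 kb overlapped. The member closest to 5 kb lay 5009 bp from a TSS in an intron of Nkx2-2, a homeodomain factor of the oligodendrocyte lineage (chr2:147177832-147179074). Its fold was low, from 1.99 to 2.78 with a median of 2.32. The next 4 members outward, near Pag1, Lrrtm1, Nudt2 and Lrrc8d, had mean folds of 3.62, 3.99, 3.32 and 2.96. The 5 shared peaks just under 5 kb, the first of them 4992 bp from a TSS near Tiam2, had mean folds of 3.14 to 4.43.

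Of 21992 coding genes, 2279 (10.4%) had at least 1 member nearest to their TSS, and 1652 of these had 1. The nearest gene of the 12 contig members had all 12. Zfp608, a zinc-finger gene on chromosome 18, had 10 members at 5690 to 700367 bp, with mean folds of 2.95 to 4.89. Chd7, a chromatin remodeller of oligodendrocyte precursors, and Sox6, an HMG-box factor that holds OPCs undifferentiated, had 8 each. Fam19a5, Fyn and Kcnd3 were among those with 7. Fyn is a Src-family kinase of oligodendrocyte process growth, and Kcnd3 a potassium channel. A further 12 genes had 6 each, Sox2, Csmd1, Opcml, Npas3 and Ptn among them.

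Of the 8 Sox6 members, 6 lay in its own introns. Mean folds ran from 2.78 (fold percentile 38.1) to 4.30 (percentile 94.3), and both of these extremes were intergenic. These 8 were found among 105 distal merged peaks nearest to Sox6 in any library. The 6 Sox2 members all lay outside the gene, 71815 to 501468 bp away, with mean folds of 2.69 to 4.82. At Chd7 the strongest of the 8 (chr4:8646811-8648674) had folds of 3.49 to 5.10 over the libraries (median 4.21). Its window held 47 CG dinucleotides, beside a median of 4 over the members. Introns of the annotated model Gm20388 held 14 members and those of Fgfr2 held 9. Both models are very long in the annotation (4435 and 2961 kb) and span other genes.

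Clusters of members were few. At most 25 kb apart and at least 3 in number, members formed 46 clusters that held 157 of them (4.72%), with a median span of 32.9 kb. The one with most members, 9, lay on the contig. The one with most on a chromosome held 6 members within 66.7 kb of introns of Dclk2, a doublecortin-like kinase (chr3:86807363-86874014). Their mean folds ran from 2.67 to 3.69, so it was a dense but not a strong cluster. The 10 clusters of 4 included those at Pofut2, Hmga2, Lrrc74a and Irf2bpl, Zcchc24, Hacl1 and Ankrd28, Shc4, Kcnd3, Pde4b and Acot7. The remaining 34 held 3 each, at Fyn, Ptn, Ets1 and Igf1r among others. The count was set by the distance allowed, with 14 clusters at 10 kb and 110 at 50 kb.

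Members were nearest to 14 of 21 lineage transcription factors, 7 of 14 OPC surface and matrix genes and 11 of 24 growth and feedback genes, beside 10.4% of all coding genes. For genes of other states the counts were 4 of 15 for myelin, 2 of 10 for astrocytes, 1 of 10 for microglia, 3 of 8 for endothelium and 2 of 15 for neurons. Genes with more distal peaks in any library have more chances to have a member. As a share of those peaks, members were 6.77% at lineage factors, 7.65% at OPC surface genes and 5.52% at growth genes, beside 5.38% over all coding genes. At myelin genes the share was 8.64% (7 of 81), at endothelial genes 5.80% (4 of 69) and at astrocyte genes 4.76% (3 of 63). At microglial genes it was 4.55% (1 of 22) and at neuronal genes 2.74% (2 of 73). The shares at genes of other states rest on few members, so their order means little.

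**Figure D3:**
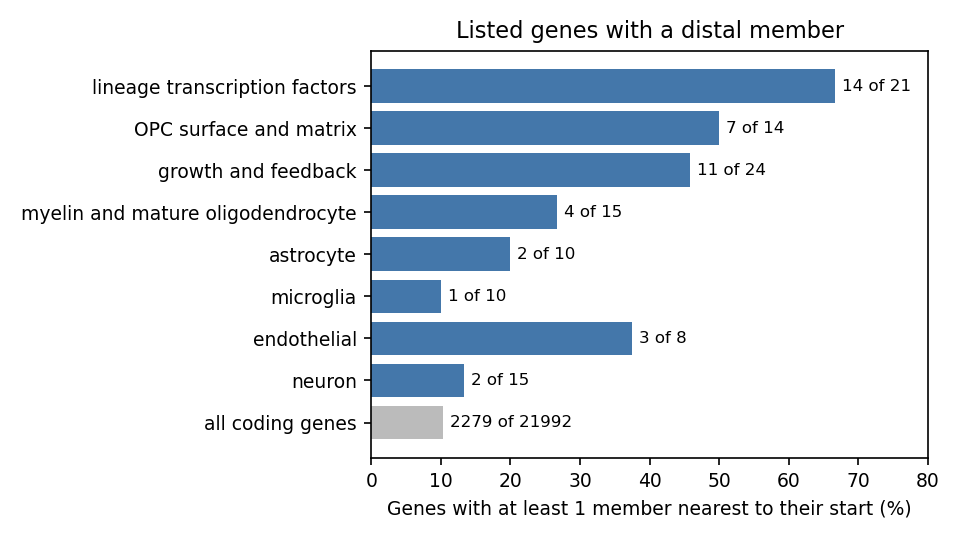
Share of genes (x axis, percent) with at least 1 member nearest to their TSS, by gene list, with counts beside the bars. The share was 66.7% for lineage transcription factors and 10.4% for all coding genes (grey).

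Among the lineage factors, Olig2, which specifies the lineage, had 2 members. The nearer one (chr16:91245716-91247490, intergenic, 20259 bp away) had folds of 3.19 to 4.88 with a median of 4.13. The farther one had a median of 3.71. Neighbouring Olig1 had 1 member, at 34112 bp, with a mean fold of 3.39 ± 0.25. Sox10, the master factor of myelination, had 1 distal merged peak in any library, and it was a member (chr15:79192357-79194204, 27117 bp away, in an intron of a noncoding gene). Its folds ran from 2.47 to 4.52 with a median of 3.57, and brainstem and telencephalon libraries overlapped. Tcf4, an E-protein partner of such factors, had 4 members with mean folds up to 4.96, Zeb2 had 3, and Sox5, Sox9, Nfia and Nfib had 2 each. Nkx2-2 and Tcf12 had 1 each. No member was nearest to Sox8, Nkx6-2, Myt1, Zfp488, Zfp536, St18 or Nfix.

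At the surface genes, Cspg4 had 2 distal merged peaks in any library, and both were members, in its own introns at 5408 and 10391 bp. Their folds were low, with medians of 3.00 and 2.32. Lhfpl3 had 4 members, Tnr 3, Ptprz1 2, and Pdgfra, Epn2 and Neu4 1 each. The Pdgfra member (chr5:75222527-75224805, 60693 bp away) had folds of 2.38 to 3.42, and 51.3% of its window is masked as repeat. Among growth genes, Erbb4, a neuregulin receptor, had the member of highest fold, 5.10 ± 0.78 (SD, n = 13), at 15536 bp. Etv1, an ETS factor, had 3, and Myc, Mycn and Etv5 had 2 each. At myelin genes, Mbp, Cldn11 and Ugt8a had 2 members and Enpp6 had 1. The members at genes of other cells were near Aldh1l1 and Slc1a3 (astrocyte), Ptprc (microglia), Pecam1, Cdh5 and Vwf (endothelium) and Stmn2 and Map2 (neuron). The Ptprc member, 25587 bp away, had folds of 2.99 to 4.55, and the promoter of Ptprc held no shared peak.

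Sequence under the members differed from that of shared peaks near a TSS and of distal peaks of 1 library. The rule did not use sequence, but these sets differ from the members by what it did use, TSS distance or number of libraries. Median GC content was 49.0% in the members, 65.0% near a TSS and 45.3% in distal peaks of 1 library, and the windows held a median of 4, 25 and 2 CG dinucleotides. A mean of 9.26% of bases was masked as repeat in the members, against 21.6% in distal peaks of 1 library. Motif shares below are descriptions of 300 bp windows, with 95% Wilson intervals in brackets that cover counting only. A match is a run of letters, not a bound site.

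The SOX core ACAAAG was found in 40.1% of member windows (38.4 to 41.8), 14.3% of windows near a TSS, 26.3% of windows of distal peaks in 1 library and 27.6% of all merged peaks. The core ACAAT was found in 44.8% of members, and distal peaks of 1 library held it in 44.2%. Of the E-boxes, CAGCTG was found in 34.2% of members (32.6 to 35.9), 16.8% of distal peaks in 1 library and 21.8% of all merged peaks. CAGATG was found in 29.3%, 24.9% and 23.9%, and CATATG in 4.71%, 7.77% and 5.70%. The AP-1 site TGANTCA was found in 15.0% of members, 10.7% of distal peaks in 1 library and 10.6% of all merged peaks. The TEAD site GGAATG was found in 17.5%, 16.8% and 15.9%. The NFI half-sites TTGGC and GCCAA at 5 bases apart were found in 4 members. Motifs were searched on both strands, and 364 members held none. No motif was a part of another, but matches could overlap in a window. In 500 bp windows ACAAAG matches were denser at the centre, at 9.72 and 9.44 matches per 100 windows in the 2 central 50 bp bins and 6.28 and 5.70 in the outermost. This was not particular to SOX. CAGCTG had 7.42 and 7.85 in the central bins and 4.32 and 4.74 in the outermost, and AP-1 2.99 and 3.11 against 1.72 and 1.87. For TEAD the values were 2.93 and 3.26 against 3.29 and 2.87. Among members ranked on fold percentile in 5 equal classes, ACAAAG was found in 34.4% of the lowest class, 45.4% of class 4 and 41.2% of the highest class.

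CTCF and RFX ran differently over the number of libraries. Distal peaks held the CTCF consensus in 1.03% of windows in 1 library, at most 5.96% in 5 libraries and 0.724% (24 of 3314, 0.487 to 1.08) in the members, against 2.36% of all merged peaks. With a looser form of the consensus, chosen after this was seen, the highest share was 7.53%, in 6 libraries, with 1.15% in the members. The RFX consensus was found in 0.0676% of distal windows in 1 library and 0.724% of members (24 of 3314), with 1.01% in 11 libraries, and in 0.248% of all merged peaks. The strongest RFX member (near Myo3a, chr2:21917862-21919510) had a mean fold of 4.5 ± 0.57. The ACAAAG and CAGCTG shares were highest in the members, by little over the 39.2% of ACAAAG in 10 libraries and the 33.3% of CAGCTG in 12.

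**Figure D4:**
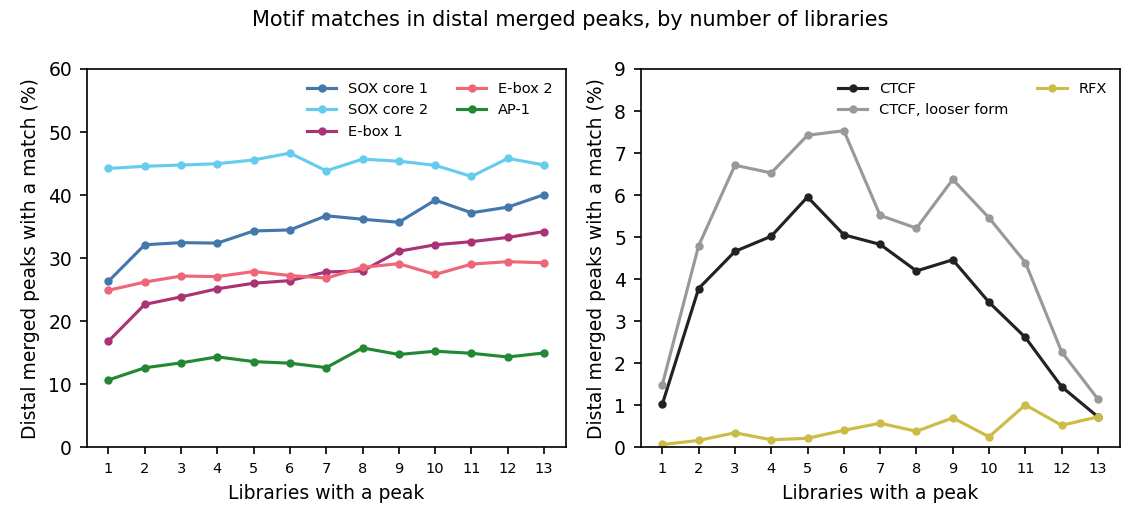
Share of distal merged peaks with a motif match in 300 bp (y axes, percent) against the number of libraries with a peak (x axes), for the SOX cores ACAAAG (1) and ACAAT (2), the E-boxes CAGCTG (1) and CAGATG (2) and AP-1 on the left, and CTCF and RFX on the right. The CTCF share was 5.96% in 5 libraries and 0.724% in 13.

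The comparisons of region and genotype ask whether the strength of these common sites differs with origin or mutation. Brainstem and telencephalon differed at 2 of the 3329 members, both lower in brainstem, after Benjamini-Hochberg adjustment over all 13075 shared merged peaks (limma, adjusted p under 0.05), beside 0.0229% of all shared merged peaks called, all of them lower in brainstem. At an unadjusted p under 0.05, 363 members were past the threshold (10.9%, beside 6.61% of all shared peaks). Of these 246 were lower in brainstem (7.39%, beside 3.79%) and 117 higher (3.51%, beside 2.81%). This balance turned without centring, where 12 members were lower and 91 higher at an unadjusted p under 0.05 (21 and 279 of all shared peaks). K27M and Control differed at 0 members (0% of all shared peaks called), with 196 at an unadjusted p under 0.05 (5.89%, beside 4.56%). The smallest adjusted p for genotype was 0.697 (limma). Without K27M telencephalon culture 59, 2 members passed, beside 2 of all 13243 shared peaks in that fit. The 2 members are named here after their values were seen. One, intergenic and 189935 bp from the TSS of Arl6ip6 (chr2:53382023-53383507), was higher in K27M by 0.48 ± 0.08 on the log2 scale (SE; limma, adjusted p = 0.0110), with folds of 2.89, 3.12 and 3.68 in Control and 2.91, 4.29 and 5.50 in K27M over all libraries, culture 59 at the lowest 2.91. The other lay on the contig and was lower in K27M by -0.65 ± 0.11 (limma, adjusted p = 0.0110), with culture 59 the highest of the K27M libraries at 7.11. Its folds overlapped, at 3.91 to 9.76 in Control and 3.61 to 7.11 in K27M over all libraries. In the fit of all 13 libraries the differences were 0.37 ± 0.09 near Arl6ip6 and -0.47 ± 0.14 on the contig (SE; limma, adjusted p = 0.697 for both). For the interaction of region and genotype, 0 members were called (0% of all), with 170 at an unadjusted p under 0.05 (5.11%, beside 4.1%).

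The first region member lay in an intron of Cacna1e, a voltage-gated calcium channel subunit (chr1:154532239-154533695, 55543 bp from its TSS). Its fold was 3.00, 3.47 and 4.13 (lowest, median, highest) in the 6 brainstem and 3.56, 4.22 and 5.11 in the 7 telencephalon libraries. The raw folds overlapped, and after centring every telencephalon library was above every brainstem library. The difference was -0.37 ± 0.07 (SE) on the log2 scale (limma, adjusted p = 0.0176). Of its window, 54.0% is masked as repeat. The second was intergenic, with the TSS of Pgap1, which remodels GPI anchors, as its nearest. Its fold was 2.72, 2.97 and 3.5 in brainstem and 3.27, 3.65 and 4.26 in telencephalon libraries, again overlapping before centring only. The difference was -0.37 ± 0.07 (limma, adjusted p = 0.0176). Neither call held without centring (limma, adjusted p = 0.997 for both), where the differences were -0.31 at Cacna1e and -0.30 at Pgap1. On leaving out each library the call at Cacna1e was lost without Control brainstem 51, Control telencephalon 61, K27M brainstem 59 or K27M brainstem 61 (limma, adjusted p from 0.0672 to 0.168), with differences of -0.37 to -0.35 in those fits. At Pgap1 it was lost without Control brainstem 51, Control telencephalon 51 or 59, K27M brainstem 41 or 59, or K27M telencephalon 41 (limma, adjusted p from 0.0508 to 0.168), with differences of -0.38 to -0.35.

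**Figure D5:**
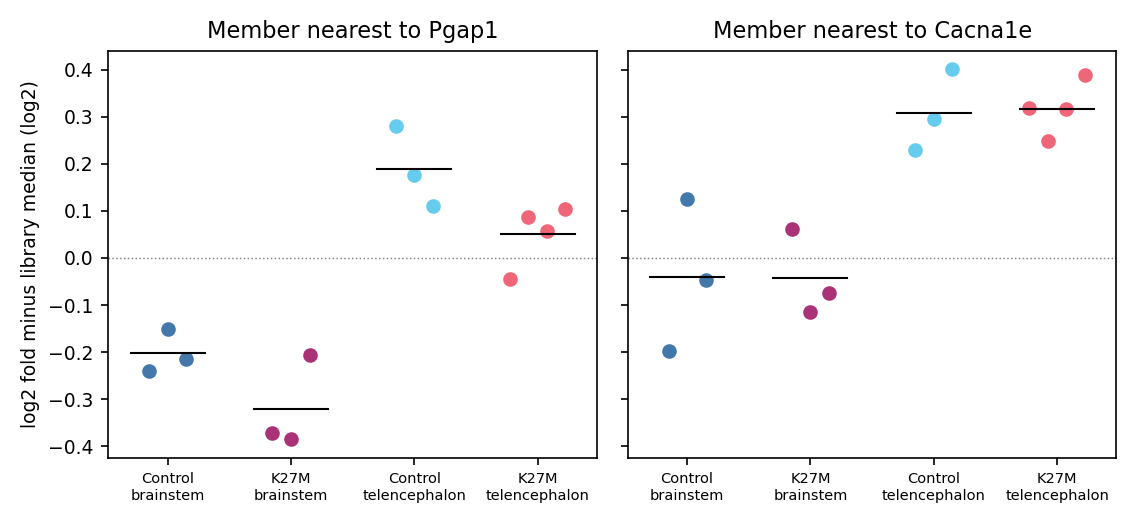
Log2 fold minus the library's median over shared merged peaks (y axis) at the members nearest to Pgap1 and Cacna1e, by group; points are libraries and lines are group means. At both members the 7 telencephalon libraries lie above the 6 brainstem libraries.

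At the lineage members shown above no difference passed. For the Olig2 member the brainstem minus telencephalon difference was 0.09 ± 0.07 (limma, adjusted p = 0.886) and the K27M minus Control difference 0.17 ± 0.07 (adjusted p = 0.999). For the Sox10 member they were 0.06 ± 0.07 (adjusted p = 0.946) and 0.10 ± 0.08 (adjusted p = 0.999). For the Sox2 member, 501468 bp from the TSS of Sox2, they were 0.03 ± 0.07 (limma, adjusted p = 0.979) and 0.12 ± 0.08 (adjusted p = 0.999). Before adjustment, p for the K27M minus Control difference at the Olig2 member was 0.0257 (limma). The Auts2 member, not of the lineage list, had -0.27 ± 0.09 by region (limma, unadjusted p = 0.00675, adjusted p = 0.626).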

How the data were processed

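Per the labels and the study's methods, the authors processed Omni-ATAC libraries with the nf-core pipeline (BWA 0.7.17-r1188 for alignment to mm10, blacklist filtering) and used MACS2 2.2.7.1 to call broad peaks for each library separately. The deposited lists give the fold enrichment over local background and the −log10 p-value and q-value of each peak. They hold no counts, so the study's count model could not be run and depth is unknown. The deposited score was not used.

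Peaks were merged in Python 3.11.15 (NumPy 2.4.6, SciPy 1.17.1). The highest fold of a library in a merged peak was its value. Log2 folds, centred on each library's median over shared merged peaks, were fitted with limma 3.58.1 (R 4.3.3, trend) with region, genotype and culture number as a block, since the study accounted for matched cultures where possible. Same-number libraries had correlations of deviations from -0.10 to 0.22 (median 0.08, 8 of 16 pairs over 0.1) and different-number libraries from -0.24 to 0.22 (median -0.05, 9 of 47), so not every same-number pair was over 0.1, which pairing by the data would have required. P-values of limma rest on the spread between libraries that remains after region, genotype and culture number. Those of the permutation tests rest on the spread between libraries. Members named were the 10 of highest mean percentile, the 5 on each side of 5 kb and those called, and genes those with most members, in the 10 clusters with most members, or listed. Members and lists were chosen with earlier results of these data known. Intervals cover counting only. Some genes and 1 sequence are not reported here.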

Additional observations from a re-analysis of the deposited data

Results flagged for a closer look

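Within the group of 4 K27M telencephalon libraries, 70 values were examined for a library far from the other 3 by Dixon's ratio, and chance marks about 1 in 20 such groups. The 4 marked were the folds of the members nearest to Pag1 (highest library 4.32), Dclk2 (the one at chr3:86807363-86808922, highest library 3.77), Sox6 (chr7:115624096-115626208, highest library 4.12) and Sox2 (chr3:34722220-34723399, lowest library 3.62). The groups of 3 could not be examined this way.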

How the results depend on the processing

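The number and distal share of members depended on the lists and the rule. At equal list length 1973 members (23.1% of shared peaks) were found, and with p at most 1e-10, 179 (20.6%). Leaving out each library gave 3330 to 5165 members and 25.5 to 29.8%, the highest without Control telencephalon culture 59. At 2 kb from any TSS, 10 kb from any TSS and 5 kb from coding TSSs only, the share was 29.8%, 19.6% and 31.4%. The distal to near difference in fold kept its sign and its side of the threshold in 19 of 19 alternatives (0.02 to 0.05 on leaving out libraries). By region (-0.03 to -0.01) and genotype (-0.02 to -0.0004) it stayed past no threshold in 17 of 17 each. The replicate block by genotype, counted among these, paired too few libraries to pass the threshold in any arrangement, so it could not decide. The count of members that differed by region was 0 without centring (0 of all shared peaks) and 0 to 3 on leaving out libraries (0 to 5 of all). It was also 0 at equal list length and at p at most 1e-10 (1 and 0 of all). The Cacna1e and Pgap1 members were not among the shared peaks there, so their calls could not be tested. Without centring 71.9% of members were higher in brainstem, beside 79.8% of all shared peaks. With centring the shares were 42.8% and 48.0%. By genotype the count was 0 to 2 on leaving out libraries, 2 without K27M telencephalon culture 59, and 0 in every other alternative. The counts over all shared peaks were the same. The interaction gave 0 throughout. With no replicate block the counts were 2, 0 and 0. With labels exchanged within culture number (the replicate block), the distal to near difference was -0.02 by region (exact permutation, p = 0.25) and -0.01 by genotype (p = 0.563). Only libraries with a same-number partner entered this block, so it did not use all 13 libraries. The cause of these shifts was not tested. Intron share was 55.3% at p at most 1e-10 and 50.3% with coding TSSs only. Clusters numbered 14 at equal length, 1 at p at most 1e-10, 46 to 111 on leaving out libraries, 27 at 10 kb from a TSS and 84 with coding TSSs only. In 500 bp windows, which hold more letters, ACAAAG was found in 53.5%, CAGCTG in 46.0% and CTCF in 1.45% of members.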
